A study of Homo sapiens with 6 samples.

Results

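Interferons are secreted proteins through which a cell that senses virus or misplaced nucleic acid warns itself and its neighbours. The genes followed here are 3 ligands and 6 receptor subunits: IFNB1 (interferon beta, type I), IFNL1 and IFNL2 (interferon lambda, type III), the type I receptor pair IFNAR1 and IFNAR2, the type III pair IFNLR1 and IL10RB, and the type II pair IFNGR1 and IFNGR2. They were chosen by symbol in the annotation of the Affymetrix HG-U133 Plus 2.0 array, with earlier results of these data known, and they cover 18 of the 54675 probe sets. A probe set reads one stretch of a transcript. All 9 genes were found, of 19775 genes with a probe set of their own. Of the 18, 17 are annotated to a single member gene and 1 to both IFNL3 and IFNL2.

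RNA came from SW480 cells, an established colorectal adenocarcinoma line of epithelial origin grown in medium with fetal calf serum. The labels give 3 biological replicates of cells transfected to overexpress CPEB3, a protein that binds cytoplasmic polyadenylation elements of mRNAs and regulates their translation, and 3 of cells transfected with a negative control (NC). Both groups are transfected cells, and no untransfected sample was analysed here. The labels give neither the construct's promoter, nor the time after transfection, nor whether replicates were separate cultures, so any p-value measures the spread between these arrays. Every value below is log2 of the deposited normalized intensity, a relative brightness with no absolute unit, and every difference is arrays labelled CPEB3 minus arrays labelled NC.

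All 3 interferon types end in JAK kinases and STAT transcription factors. Type I and type III ligands bind different receptor pairs and then lead to the same transcription factor complex, of which IRF9 is a part and which switches on an overlapping set of antiviral genes. Type II interferon, IFNG, is made mainly by lymphocytes and signals through its own receptor pair. The ligand genes of types I and III are nearly silent until IRF and NF-kB factors are activated, whereas receptor subunits are usually made all the time. IFNLR1 is the exception in its distribution, being largely restricted to epithelial cells.

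Before the results, the labels were compared with the CPEB3 transcript, and none of its probe sets was higher past the threshold. The brightest of its 4 probe sets differed by 0.05 (SE 0.07; limma, Benjamini-Hochberg adjusted p = 0.695), and the other 3 were lower where overexpression is labelled, by up to 1.44 on the log2 scale. Those 3 were dim, with group means below the array median. Whether any of the 4 can read the transcript of the construct was not worked out, so these values do not show whether CPEB3 was overexpressed. Groups are therefore called by their labels, and each direction rests on them. Arrays of the same group correlated with r from 0.997 to 0.998 over all probe sets and arrays of different groups with r from 0.991 to 0.992. The epithelial label fitted the markers: 9 of 10 colorectal epithelial genes were brighter than the median probe set on all 6 arrays (EPCAM at 11.13 and 11.09), the exception being LGALS4. The 3'-minus-5' difference, a sign of RNA length, was 0.01 to 0.14 against -0.04 to 0.01 at GAPDH and 3.24 to 3.54 against 3.21 to 3.27 at ACTB (labelled CPEB3 against NC). The hybridization spike-ins, RNAs added in equal amount to every sample, were 0.18 dimmer on average in the arrays labelled CPEB3. Whether these technical values have a part in the differences below was not tested.

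The sequences just before the start of the ligand genes are given because the ligands carried the widest differences and because IFNL2 and IFNL3 are hard to tell apart. The 250 bases before each RefSeq start (GRCh38.p14) were taken for the 8 of 9 member genes with an entry, and for IFNL3. They are shown for the 3 ligand members, 5′ to 3′ in the direction of the gene, with matches to 2 motifs in capitals: the core AANNGAAA bound by interferon regulatory factors, and the kappaB consensus bound by NF-kB.
IFNB1, chr9:21077943-21078192, minus strand: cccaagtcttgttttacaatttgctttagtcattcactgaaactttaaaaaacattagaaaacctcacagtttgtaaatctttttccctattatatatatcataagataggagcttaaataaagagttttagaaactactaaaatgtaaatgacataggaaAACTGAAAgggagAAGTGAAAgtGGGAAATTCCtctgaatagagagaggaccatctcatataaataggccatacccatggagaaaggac
IFNL1, chr19:39296157-39296406, plus strand: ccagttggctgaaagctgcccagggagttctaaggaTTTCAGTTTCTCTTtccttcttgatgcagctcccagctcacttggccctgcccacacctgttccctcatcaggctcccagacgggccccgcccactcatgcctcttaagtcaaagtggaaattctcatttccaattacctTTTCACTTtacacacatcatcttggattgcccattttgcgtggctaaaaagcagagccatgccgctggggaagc
IFNL2, chr19:39268146-39268395, plus strand: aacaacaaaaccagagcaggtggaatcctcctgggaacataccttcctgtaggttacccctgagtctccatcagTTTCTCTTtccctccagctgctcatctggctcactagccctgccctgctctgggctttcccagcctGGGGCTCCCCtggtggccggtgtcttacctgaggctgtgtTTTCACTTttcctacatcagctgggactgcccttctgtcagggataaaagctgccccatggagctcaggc

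Both strands were searched, and the motifs overlapped each other nowhere except between a pair of neighbouring core matches in IFNL1. The IFNB1 window held 2 cores, the nearer of them ending 69 bases before the start, and 1 kappaB match just after it. IFNL1 held 3 cores and no kappaB match, and IFNL2 held 2 cores and 1 kappaB match. Of 35116 promoter windows of the same length, 20.3% held a core match and 4.54% held 2 or more, and 9.96% held a kappaB match. The AP-1 motif TGANTCA, which 6.57% of windows held, matched in none of these. No core match was found in the windows of IFNAR1, IFNLR1, IL10RB, IFNGR1 or IFNGR2, and IFNGR2 held 3 kappaB matches. A match is a stretch of letters and says nothing of whether a factor was bound there. Over the 250 bases IFNL2 and IFNL3, at the first of the listed IFNL3 starts, differed at 1 position, C31T (IFNL2 base, position from the 5′ end, IFNL3 base). The window of another listed IFNL3 start held no motif match and was not compared. IFNL1 and IFNL2 shared 28% of positions without alignment. An offset between sequences lowers such a share, so it does not measure how related these 2 windows are.

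The ligands gave the widest differences among the members, and all were lower in the arrays labelled CPEB3. IFNB1 read 2.57, 2.47 and 2.30 in the 3 arrays labelled CPEB3 and 4.51, 4.75 and 4.83 in the 3 labelled NC. The groups did not overlap, every array labelled NC being brighter. The means were 2.45 ± 0.14 and 4.70 ± 0.17 (SD, n = 3 each). They differed by -2.25 (SE 0.10), 4.76-fold. IFNB1 stood below the median probe set (3.89 to 3.93) on every array labelled CPEB3 and above it on every array labelled NC.

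IFNL1 read 3.97, 3.68 and 3.66 in the arrays labelled CPEB3 and 5.85, 5.69 and 5.94 in those labelled NC. The difference was -2.06 (SE 0.10), or 4.17-fold, close in size to that of IFNB1 though the genes lie on different chromosomes. IFNL2 read 2.86, 3.17 and 2.95 against 7.51, 7.42 and 7.64. It had the widest difference of the 18 probe sets, -4.53 (SE 0.09) or 23.0-fold, with means of 2.99 ± 0.16 and 7.52 ± 0.11 (SD, n = 3 each). The probe set annotated to both IFNL3 and IFNL2 read 3.35, 3.63 and 3.41 against 6.46, 6.73 and 6.69, a difference of -3.16 (SE 0.10). No probe set was annotated to IFNL3 alone, and the paralogs are nearly identical, so how the signal divides between IFNL2 and IFNL3 was not resolved here.

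These 4 probe sets share a low level in the arrays labelled CPEB3, where all but 1 of the 12 readings lay below the array's median. No detection calls were used, so whether those readings are above background is not known, and the folds of dim probe sets can be understated. In bulk RNA, fewer cells with the transcript and less transcript per cell cannot be told apart. With 8 added to each intensity before log2, which damps dim values, the differences became -1.33 for IFNB1, -1.58 for IFNL1, -3.58 for IFNL2 and -2.49 for the shared probe set.

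**Figure D1:**
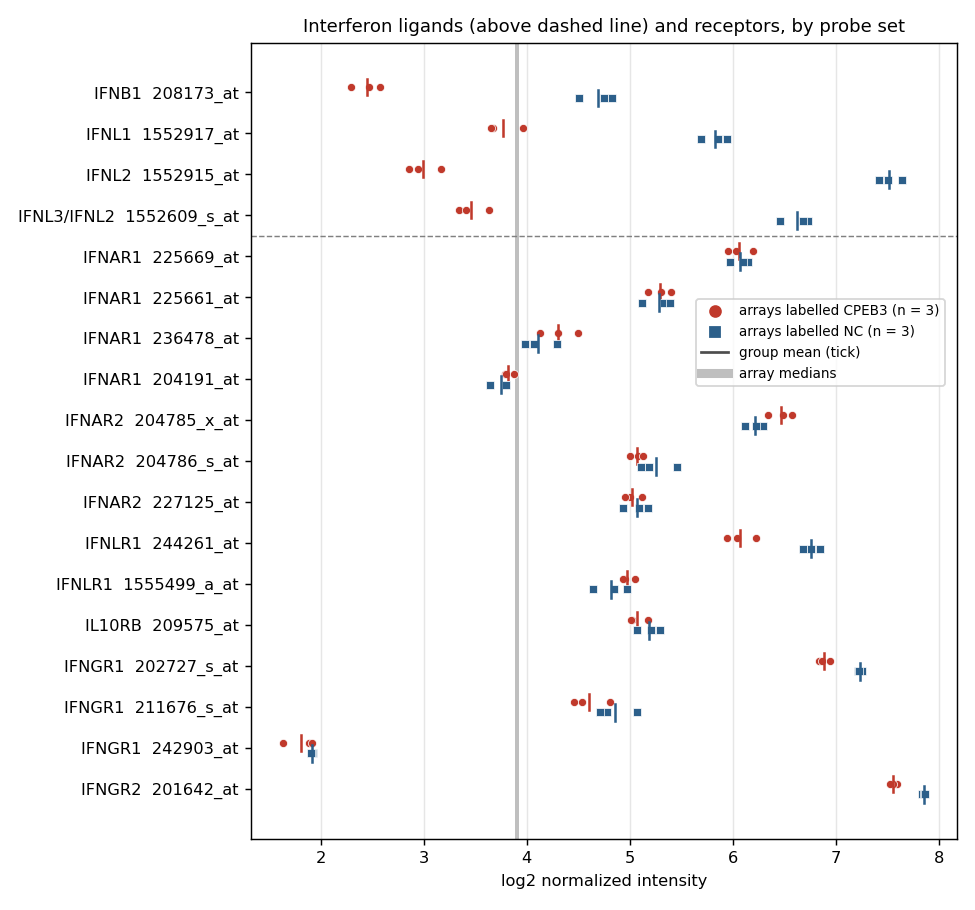
Log2 normalized intensity (x axis) of the 18 probe sets of interferon ligands and receptors, with 3 arrays labelled CPEB3 as circles, 3 labelled NC as squares, group means as ticks and the array medians as a grey band. The 4 ligand probe sets separate by 2.06 to 4.53 on the log2 scale, while the 14 receptor probe sets lie between -0.69 and 0.25.

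The other ligand genes on the array gave no such pattern. Of 19 listed (the interferon alpha family, IFNW1, IFNE, IFNK, IFNG, IFNL3 and IFNL4), 15 had a probe set of their own, and 14 of these were below the array median on all 6 arrays. In the fit across all probe sets 1 was lower and 1 higher past a limma Benjamini-Hochberg adjusted p under 0.05, beside 18.8% of the 19775 genes tested (10.5% lower, 8.32% higher). Their median difference was 0.08, against 0.02 over all genes. IFNA2 was 1.61 ± 0.09 against 1.92 ± 0.15 and IFNA5 1.64 ± 0.02 against 1.28 ± 0.13 (SD, n = 3 each), the limma adjusted p (Benjamini-Hochberg) being 0.044 and 0.0134. Neither call held under every left-out array: IFNA5 gave an adjusted p of 0.0527 without the first array labelled CPEB3, and IFNA2 lost its call in 5 of the 6 cases, keeping it without NC replicate 3. IFNG, the type II ligand, was at 1.41 ± 0.14 and 1.47 ± 0.07 (SD, n = 3 each), among the dimmest probe sets described here. It differed by -0.06, within a 95% interval of -0.25 to 0.13, and the adjusted p by limma was 0.711. Interferon alpha genes are close paralogs, so their values are uncertain.

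**Figure D2:**
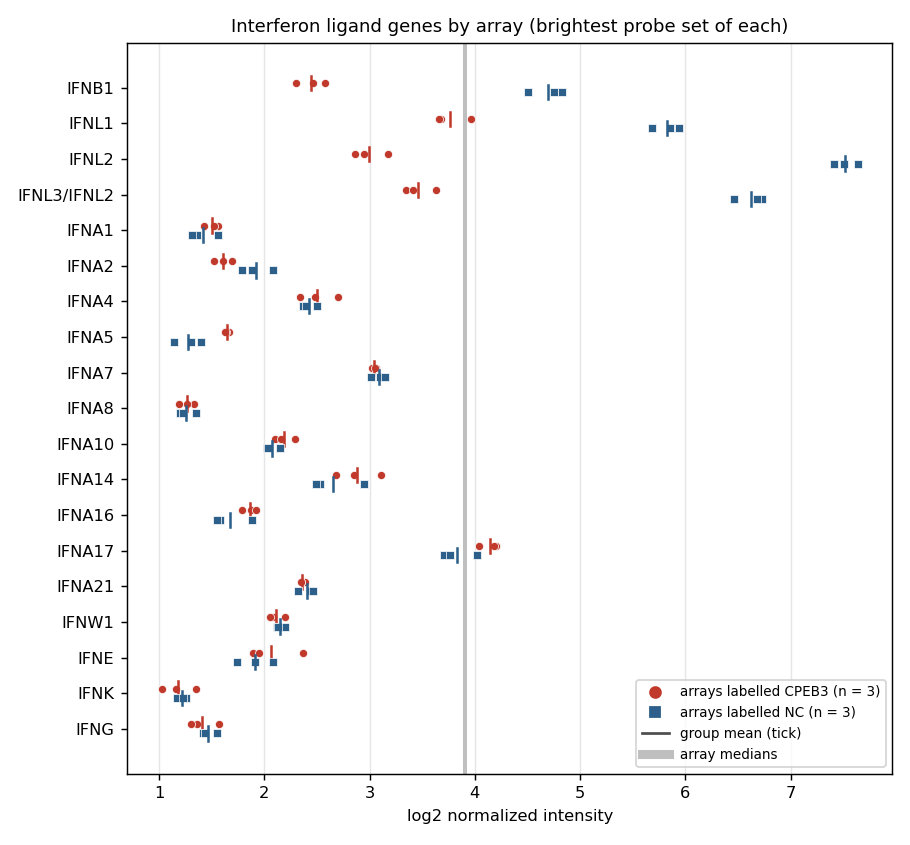
Log2 normalized intensity (x axis) of the interferon ligand genes, each by its brightest single-gene probe set plus the shared IFNL3/IFNL2 probe set, with circles for the 3 arrays labelled CPEB3, squares for the 3 labelled NC and ticks for group means. The squares of IFNB1 and the lambda genes stand to the right of the grey band of array medians (3.89 to 3.93), at 4.51 to 7.64.

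The receptors differed less than the ligands. Of their 14 probe sets 3 passed the threshold as lower, 0 as higher and 11 did not pass. Beside them, 7.86% of all probe sets passed as lower and 6.59% as higher. The receptor differences ran from -0.69 to 0.25 with a median of -0.07, against a median of 0.02 over all probe sets. Counting ligands and receptors together, 7 of the 18 probe sets passed the threshold as lower and 0 as higher (all 4 ligand probe sets and 3 receptor ones), where 14.4% of all 54613 tested probe sets passed in either direction, 7.86% as lower and 6.59% as higher. The groups did not overlap in 8 of the 18, where 32.1% of all probe sets did not. The arrays labelled CPEB3 were the lower ones in 7 of the 8, and in 14.9% of all probe sets. The members were chosen with this contrast known, so these counts describe them and test nothing.

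For the type I receptor, IFNAR1 (the chain that carries TYK2) had 4 probe sets and IFNAR2 (the chain that carries JAK1 and binds ligand first) had 3. The brightest IFNAR1 probe set read 6.03, 5.95 and 6.19 in the arrays labelled CPEB3 and 5.97, 6.15 and 6.10 in those labelled NC. The groups were interleaved, and the other 3 IFNAR1 probe sets also overlapped, with differences of 0.01, 0.07 and 0.19. At the brightest the difference was -0.01 with a 95% interval from -0.20 to 0.17.

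IFNAR2 depended on the probe set. The brightest, whose design can match several transcripts, read 6.57, 6.34 and 6.49 against 6.30, 6.23 and 6.12. Its groups did not overlap, and the difference was 0.25 (SE 0.08), which did not pass the threshold in the main fit. With 1 probe set per gene in the fit it passed as higher. The other pair differed by -0.18 and -0.04 and overlapped, and the mean of the 3 differed by 0.01. The gene makes membrane-bound and soluble forms, and which of them each probe set reads was not analysed here.

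The type III receptor gave the widest receptor difference, again at 1 of its probe sets. IFNLR1, the specific chain, read 5.94, 6.05 and 6.23 in the arrays labelled CPEB3 and 6.68, 6.76 and 6.84 in those labelled NC at its brighter probe set. The groups did not overlap, with means of 6.07 ± 0.14 and 6.76 ± 0.08 (SD, n = 3 each) and a difference of -0.69 (SE 0.09), or 1.61-fold lower. Its other probe set read 5.05, 4.95 and 4.93 against 4.97, 4.85 and 4.64, an overlap with a difference of 0.16 in the other direction. The mean of both differed by -0.27. IL10RB, the chain that interferon lambda shares with interleukin-10 and its relatives, read 5.18, 5.02 and 5.01 against 5.29, 5.21 and 5.07. Its groups overlapped, with a difference of -0.12 and a 95% interval from -0.30 to 0.06.

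Both chains of the type II receptor were slightly lower, with tight replicates. IFNGR1, the ligand-binding chain, read 6.84, 6.95 and 6.87 in the arrays labelled CPEB3 and 7.22, 7.26 and 7.22 in those labelled NC at its brightest probe set. The difference was -0.35 (SE 0.06), or 1.27-fold, and the other pair of IFNGR1 probe sets overlapped with differences of -0.25 and -0.10, the last at the dimmest probe set of all members. IFNGR2, the signalling chain, read 7.60, 7.55 and 7.53 against 7.83, 7.85 and 7.87, a difference of -0.29 (SE 0.06), or 1.22-fold. Its groups did not overlap.

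The signs and calls of several small receptor differences depended on how the arrays were scaled, and the signs of the ligand differences did not. Centring each array on its spike-ins raised the median of all probe sets from 0.02 to 0.20. IFNGR1 and IFNGR2 then became -0.17 and -0.11, IFNLR1 -0.51, IFNAR2 0.43, and IL10RB and IFNAR1 turned from -0.12 to 0.06 and from -0.01 to 0.17 at their brightest probe sets. So centred, 5 member probe sets were past the threshold as lower and 4 as higher. The ligands stayed at -2.07 (IFNB1), -1.88 (IFNL1) and -4.35 (IFNL2). Over all probe sets the split of calls moved from 4294 lower and 3597 higher to 1910 and 17876.

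The 4 receptor genes IFNAR2, IL10RB, IFNAR1 and IFNGR2 lie in that order on chromosome 21, and IFNL3, IFNL2 and IFNL1 lie together on chromosome 19, by the RefSeq gene order. Taking 6 protein-coding genes on each side, a window chosen after the data were seen, 11 other genes at the receptor cluster had a probe set of their own. Of these 1 was lower (SYNJ1, -0.35) and 1 higher (OLIG1, 0.31, a probe set far below the array median), at a limma adjusted p (Benjamini-Hochberg) of 0.0355 and 0.0308. OLIG1 kept its call without CPEB3 replicate 1 and lost it without any of the other 5 arrays, and SYNJ1 kept its call without NC replicate 2 and lost it without any of the other 5. TMEM50B, next to IFNGR2, differed by 0.22 at its brightest probe set (limma, Benjamini-Hochberg adjusted p = 0.0575), and 3 of its 5 probe sets were higher past the threshold. GART, in the same window, differed by -0.22 at its brightest, and 2 of the 9 GART probe sets passed as lower, to -0.45. Around the lambda genes, 10 others were measured and 1 was lower, ZFP36 (-0.69; limma, Benjamini-Hochberg adjusted p = 1.73e-04), which encodes an mRNA-destabilizing protein. For both windows the share of all genes called was 18.8%. LRFN1, the nearest measured gene beside IFNL1, differed by 0.10 (SE 0.10), with an adjusted p of 0.576 by limma. A separate list of 27 measured neighbours adds those of the type I cluster on chromosome 9. It also adds genes of chromosomes 19 and 21 outside these windows, among them MRPS12 on chromosome 19. It leaves out SYNJ1 and ZFP36, both lower, with EPCIP, FBXO27 and MED29. In that list 3 were lower (CDKN2B, CDKN2A and DMRTA1) and 3 higher (OLIG1, MRPS12 and FOCAD), beside 18.8% of all genes called. CDKN2B lost its call with the mean of its probe sets (-0.22; adjusted p by limma 0.0952). FOCAD lost its call without any 1 array, and MRPS12 without any array labelled CPEB3 or NC replicate 1. IL10RB-DT, a noncoding transcript that starts beside IL10RB and is no member, was 0.38 higher at 1 dim probe set (limma, Benjamini-Hochberg adjusted p = 0.00539) and differed by -0.04 at the other.

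**Figure D3:**
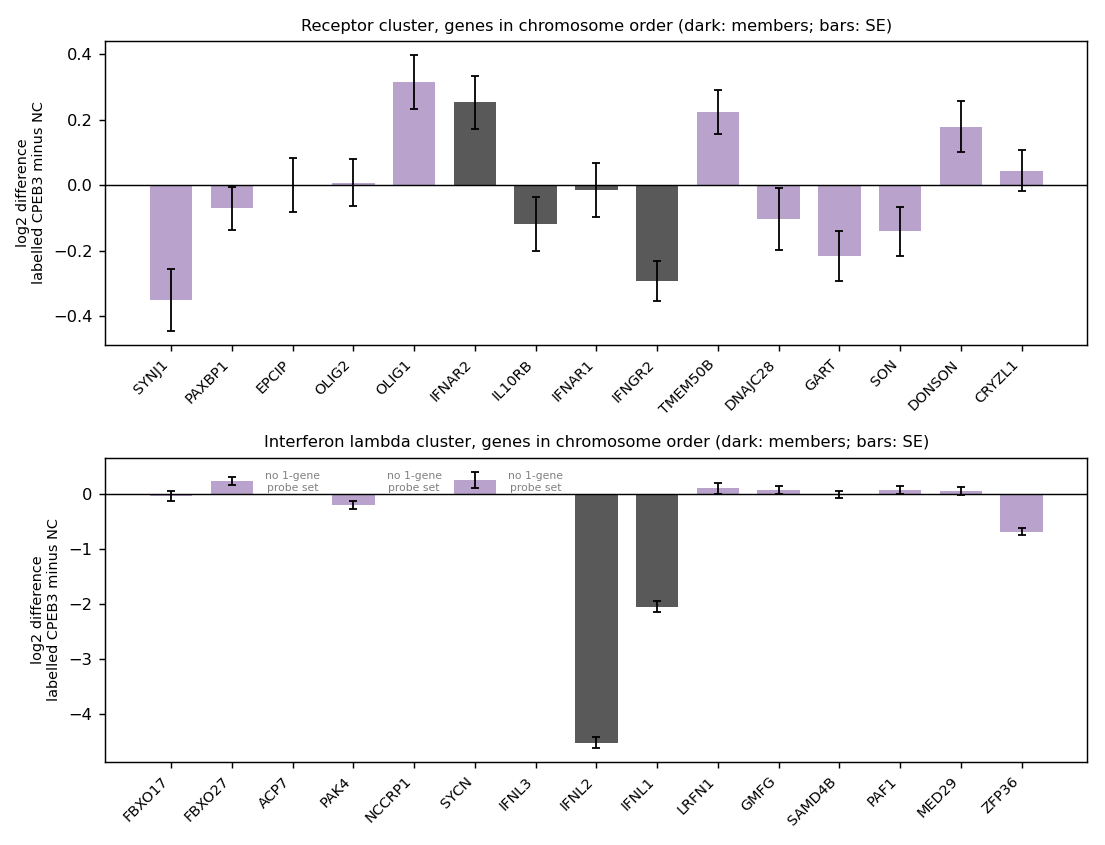
Log2 difference (y axis, arrays labelled CPEB3 minus NC, bars of 1 SE) of genes in chromosome order around the receptor cluster (top, IFNAR2 to IFNGR2) and the interferon lambda cluster (bottom), members in dark grey. The y axes differ: top values lie within 0.4 of zero, while IFNL2 and IFNL1 reach -4.53 and -2.06 between neighbours near zero, ZFP36 (-0.69) being the widest of them.

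Downstream of the receptors, IRF9 was the gene called at its brightest probe set, 1 of 5 measured, beside 18.8% of all genes. Of 7 listed genes, 5 had a probe set of their own, and the others were not analysed here. IRF9, a DNA-binding subunit of that complex, fell from 8.36 ± 0.04 to 7.13 ± 0.08 (SD, n = 3 each), a difference of -1.23 (SE 0.07; limma, Benjamini-Hochberg adjusted p = 4.65e-06), while 0 rose and 4 did not pass. JAK1 differed by -0.04 (95% interval -0.22 to 0.13; adjusted p by limma 0.778). For TYK2 it was -0.03 (95% interval -0.20 to 0.15; adjusted p by limma 0.858). None of the 5 JAK1 probe sets passed. JAK2, a kinase of the type II receptor named after its values were seen, differed by -0.15 at the brightest of its 3 probe sets (adjusted p by limma 0.252), while a dimmer one passed as lower (-0.35; adjusted p by limma 0.00546). The list's median was -0.04.

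Among 14 feedback and restraint genes, 5 fell and 1 rose, with a median of -0.09, beside 10.5% of all genes lower and 8.32% higher. USP18, which binds IFNAR2 and blocks renewed type I signalling, fell from 8.37 ± 0.08 to 5.03 ± 0.17 (SD, n = 3 each), a difference of -3.34 (SE 0.09; limma, Benjamini-Hochberg adjusted p = 3.89e-08). ISG15, a ubiquitin-like protein that stabilizes USP18 in human cells, fell by 1.12 on the log2 scale. SOCS1, which inhibits JAK kinases, fell by 0.86 at the brightest of its 4 probe sets and SOCS3 by 0.53 at the brightest of its 4, no other probe set of either passing. The phosphatase gene PTPN2 fell by 0.26 and BTRC, part of a ubiquitin ligase that acts on IFNAR1, rose by 0.28. Both lost their calls with the mean of their probe sets (limma, Benjamini-Hochberg adjusted p = 0.582 and 0.625), as did SOCS3 (limma, Benjamini-Hochberg adjusted p = 0.0903), and BTRC read -0.02 at another probe set. PTPN2 also lost its call without CPEB3 replicate 1 or 2 or NC replicate 1 or 2, and BTRC without CPEB3 replicate 3.

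Of 17 genes that regulate transcription of the ligand genes, 9 fell, 0 rose and 8 did not pass, beside 10.5% of all genes. The median was -0.26. IRF7, the factor that amplifies type I interferon production and is itself interferon-induced, fell from 8.29 ± 0.06 to 5.71 ± 0.15 (SD, n = 3 each), a difference of -2.58 (SE 0.09; limma, Benjamini-Hochberg adjusted p = 1.10e-07). IRF1 fell by 1.48 and JUN by 1.24, all 4 JUN probe sets being lower past the threshold. NFKB1 (-0.53), EP300 (-0.51), CREBBP (-0.42), ZEB1 (-0.38), HMGA1 (-0.37) and ATF2 (-0.26) made up the rest of those that fell. CREBBP lost its call with the mean of its probe sets (limma, Benjamini-Hochberg adjusted p = 0.0646), and ATF2 did so too (limma, Benjamini-Hochberg adjusted p = 0.082). ATF2 kept its call without NC replicate 3 and lost it without any of the other 5 arrays, and with the replicate block (limma, Benjamini-Hochberg adjusted p = 0.0557). With spike-in centring 5 of the 17 were lower and 1 higher, with a median of -0.08. IRF3, present before infection and activated by phosphorylation, differed by -0.02, inside a 95% interval of -0.16 to 0.12 (adjusted p by limma 0.866). Phosphorylation is not measured by these arrays.

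Target genes that types I and III share were lower throughout, and those induced mainly by type II gave no call. Of 13 shared targets 13 fell, beside 10.5% of all genes, with a median of -3.38 and a range from -5.63 (IFI44) to -0.56 (OAS2). IFI44 had an adjusted p of 5.85e-08 (limma, Benjamini-Hochberg). IFI27, IFIT3, IFIT2, OAS1 and IFIT1 followed, IFIT3 having fallen by 4.59, IFIT2 by 4.54, OAS1 by 4.39 and IFIT1 by 3.69 on the log2 scale. Of 9 type II targets (among them CIITA, CD74, IDO1 and CXCL9) 0 passed limma's threshold in either direction, beside 18.8% of all genes. Of the 9, 1 (CIITA) had an unadjusted p under 0.05. Their median was 0.05 and their differences lay between -0.13 and 0.24. With spike-in centring 3 of the 9 were higher, and with 1 probe set per gene in the fit 1 was. Of the 9, 5 were above the array median on all 6 arrays. The targets were listed with earlier results known and are no independent support for the ligand values.

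**Figure D4:**
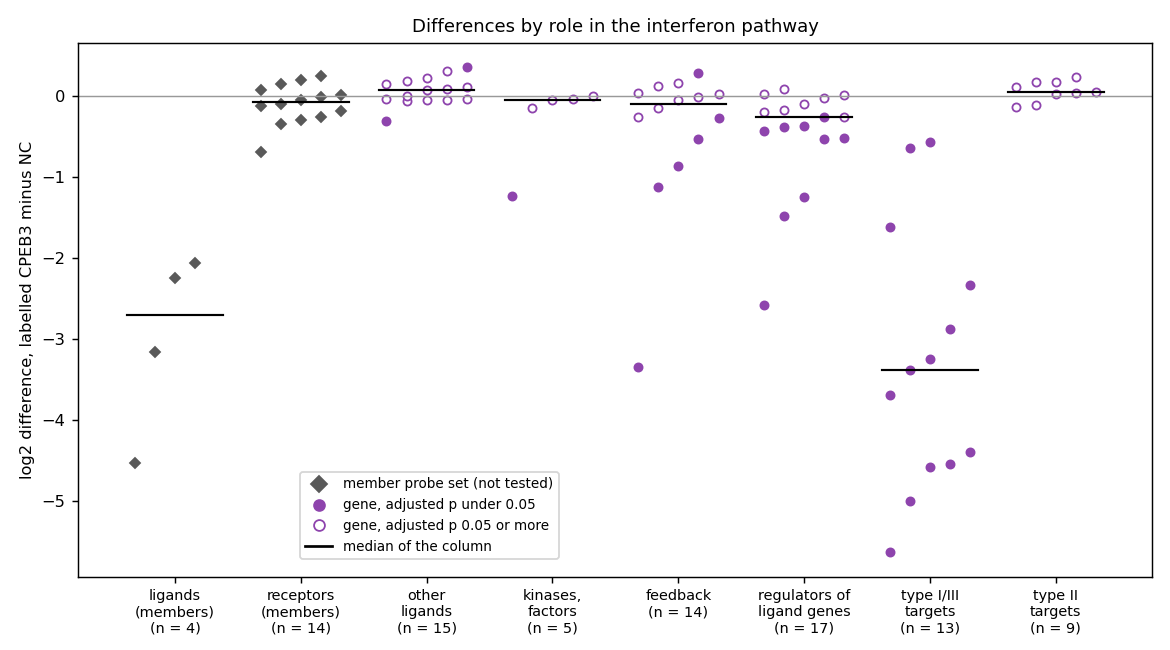
Log2 difference (y axis, arrays labelled CPEB3 minus NC) of member probe sets (diamonds) and of genes in 6 lists by role (circles), with column medians as lines. Circles are filled at a limma, Benjamini-Hochberg adjusted p under 0.05 and open otherwise. Members were in the same fit, but their calls are not drawn and the legend marks them as not tested. The columns for ligands (median -2.71) and type I/III targets (-3.38) lie low, and those for receptors (-0.07), kinases (-0.04) and type II targets (0.05) lie near zero.

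Relatives of the receptors and ligands in the class II cytokine family were called about as often as all genes. Of 12 measured, 2 fell and 0 rose, beside 18.8% of all genes called, with a median of 0.06. The count was 5 with 1 probe set per gene in the fit, 4 with gene means and 8 with spike-in centring. IL20RB, a receptor chain for interleukins 20 and 24, fell by 0.53 on the log2 scale (adjusted p by limma 0.00231). IL22RA1, a receptor chain for interleukin-22, which pairs with IL10RB, fell by as much (adjusted p by limma 0.0184), but did not pass without CPEB3 replicate 1, NC replicate 2 or NC replicate 3, where limma's adjusted p was 0.0749, 0.0621 and 0.0563.

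Over the 6 arrays, the genes whose pattern lay nearest to IFNB1 among 19774 others, each gene being centred on its own mean, were CXCL10, SP100, EGR1, RIGI and ISG20, with root mean square differences of 0.11 to 0.14 on the log2 scale. Nearest to IFNL1 were SP100, KLF4, ATF3, DDIT4 and EGR1, at 0.09 to 0.15. The median distance of all genes was 1.14 from IFNB1 and 1.05 from IFNL1. A near pattern here means mostly an equal step between the groups.

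More of the markers of other cell types lay below the array median than above it. Of 13 measured leukocyte markers, which include those of the plasmacytoid dendritic cells that make much interferon, 8 were below the array median on all arrays and 5 above it. By the brightest probe set of each, 0 fell and 1 rose (ITGAM, 0.32). The other ITGAM probe set passed in the opposite direction (-0.51), and the call was lost without CPEB3 replicate 2 or NC replicate 2. Their summed linear intensity was 197 to 213 in the arrays labelled CPEB3 and 183 to 197 in those labelled NC. PTPRC, the pan-leukocyte gene, was at 1.62 and 1.48 at its brightest probe set. Of 10 fibroblast and endothelial markers 6 were below the array median on all arrays and 3 above it. By the brightest probe set 0 fell and 1 rose (DCN, 0.30), with sums of 185 to 197 against 175 to 181. DCN lost its call without CPEB3 replicate 1 or 3 or NC replicate 1. For COL1A1, 2 of 5 probe sets passed as lower, to -0.47. Of 10 colorectal epithelial markers KRT18 rose by 0.26 and CLDN4 fell by 0.34, with sums of 8604 to 8899 against 7841 to 7993. KRT18 lost its call without any 1 of the 6 arrays. Beside the counts of these marker lists, 18.8% of all genes were called. The leukocyte ranges overlapped slightly, and neither the stromal nor the epithelial ones did. The ranges of all these lists, epithelial included, lay higher in the arrays where the ligands were lower. Whether what these sums reflect has a part in the ligand values was not tested.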

How the data were processed

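Per the labels' protocols, 100 ng of total RNA per sample was hybridised to 1 array. The authors deposited normalized intensity values without a log, made with RMA per the submitters' processing notes. No source used here gives the RMA version or how values were returned to linear. Because RMA equalises the distributions of the arrays, a general loss or gain of RNA would not show. Precision is limited by having 6 arrays, and no detection calls were used.

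Log2 was taken of the deposited intensity. All 54613 probe sets other than 62 controls were fitted with limma 3.58.1 in R 4.3.3 (lmFit, eBayes, group as the only term, two-sided, Benjamini-Hochberg over all of them, threshold 0.05), with 4 residual and 5.53 prior degrees of freedom. A gene outside the members is represented by its brightest single-gene probe set (19775 genes). Groups come from the titles. Members, lists and motifs were chosen with earlier results of these data known, so members have no p. Named are all members, 12 fixed genes, up to 6 called genes per list and the 5 genes nearest to IFNB1 and to IFNL1. Others (IL10RB-DT, SYNJ1, ZFP36, TMEM50B, LRFN1, ZEB1, HMGA1, ATF2, OAS2, CIITA, JAK2, GART, COL1A1, EPCAM, PTPRC) were named after their values were seen. Symbols of 9 of 9 member genes equal those of RefSeq (GRCh38.p14), which supplied promoters and gene order. Listed genes with only shared probe sets, or none, were not analysed here. Alternatives were 1 probe set per gene, gene means, no _s_at or _x_at probe sets, no dim probe sets, an offset of 8, 3 scalings, an intensity trend, robust variances, array weights, a replicate block, a threshold of 0.01, and leaving out each array. The steps were tested on simulated data.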

Additional observations from a re-analysis of the deposited data

How the results depend on the processing

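The count of member probe sets past the threshold (7) lay between 5 and 9 under all alternatives, and was 7 without any 1 array. The direction was not always lower. With 1 probe set per gene in the fit 6 were lower and 1 higher, of 9, and without dim probe sets 6 and 1, of 15. Dimness was judged by the mean over all 6 arrays, so a probe set could stay through the group where it is bright. The lambda ligand probe sets averaged 2.99 to 3.77 in the arrays labelled CPEB3, below the array median, and stayed through the arrays labelled NC. Their calls without dim probe sets are therefore no support for their differences. The offset, quantile normalization once more and the intensity trend each gave 7 lower and 1 higher, and spike-in centring 5 and 4. Over all probe sets 7891 passed, against 4616 with 1 probe set per gene in the fit, 4096 with the mean of a gene's probe sets and 4497 without _s_at and _x_at probe sets (fewer tested in each), 19786 with spike-in centring, 3868 at a threshold of 0.01 and 5143 to 6680 without 1 array, the lowest without the second array labelled CPEB3. With 1 probe set per gene the class II family had 5 calls and type II targets 1. With the mean of probe sets the feedback list had 3, the class II family 4, and leukocyte and stromal markers 0 each. Without _s_at and _x_at probe sets other ligands had 1, kinases and factors 2, feedback 3, stromal markers 0 and epithelial markers 1. Without dim probe sets 1 other ligand was left, and it passed; with the offset 0 of 15 did. Spike-in centring gave 7 calls for other ligands, 8 for the class II family, 3 for type II targets, 12 for neighbours, 7 for leukocyte, 6 for stromal and 4 for epithelial markers. The intensity trend gave 12 for neighbours. At a threshold of 0.01, other ligands had 0, the class II family 1, neighbours 3, leukocyte and stromal markers 0 and epithelial markers 1. Leaving out 1 array gave 0 to 2 for other ligands, 1 to 3 for the class II family, 0 to 1 for type II targets, leukocyte and stromal markers, 3 to 4 for neighbours and 1 for epithelial markers. Where fewer probe sets or samples do not account for a change, the cause was not tested. Averaging its probe sets turned CPEB3 from 0.05 to -0.50, and leaving out _s_at and _x_at probe sets turned BTRC from 0.28 to -0.024 and DCN from 0.30 to -0.10. Gene means turned ITGAM from 0.32 to -0.095. With the replicate block 7217 probe sets passed, 7 of them members, and MRPS12 and ATF2 lost their calls. Deviations of equally numbered arrays correlated with r of 0.01, 0.00 and 0.09, with 2 of 3 best matched by their own number. With so few arrays these values do not settle whether equally numbered arrays were paired, and the labels give only the number. No member past the threshold changed sign under any alternative.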
